A study of Homo sapiens with 10 samples.

Results

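The genes of the TGF-beta and BMP signalling pathways were followed in GIST-T1, an established human cell line from a metastatic gastrointestinal stromal tumour (GIST). The 49 genes were chosen by name for their place in the pathways, with earlier results of these data known. All were found by symbol among the 58381 gene rows of each library's table. They comprised 5 TGF-beta and activin ligands, 4 latent TGF-beta binding proteins, 5 BMP ligands, the protease BMP1, 5 type I receptors and 4 type II receptors. The others were 3 co-receptors or pseudoreceptors, 6 SMADs of the receptor-regulated and common kind, 4 inhibitory SMADs and SMURFs, 3 nuclear corepressors, 5 extracellular antagonists and 4 ID target genes. The 4 derivative lines are named InsE, InsF, InsG and InsH and carry, per the submitters, a knocked-out CTCF insulator. They were compared with the control line, of genotype WT, and each of the 5 groups had 2 libraries. CTCF is the DNA-binding protein found at many boundaries between chromosome loops. All groups are GIST-T1 cells with intact SDH (succinate dehydrogenase), grown in DMEM with serum. The labels do not give the edited site of each line, or whether a line is 1 clone, and they do not say whether both libraries of a line were separate cultures. The p-values therefore cover library-to-library spread only, and this may be technical.

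Ligands of the TGF-beta family are secreted dimers, and TGF-beta itself is held in the matrix in a latent form by binding proteins. A ligand joins a type II receptor to a type I receptor, which then phosphorylates receptor SMADs: SMAD2 and SMAD3 in the TGF-beta and activin branch, SMAD1, SMAD5 and SMAD9 in the BMP branch. These pair with the common partner SMAD4 to control target genes in the nucleus, among them the ID genes and the inhibitory SMADs that feed back on the receptors. In the developing gut wall, BMP signals are known to pattern smooth muscle and the enteric nervous system.

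Promoter sequence is shown first for 5 genes that the results turn on: BMP4, higher in all 4 lines, ENG, SMAD3 and SMAD6, lower in all 4 lines, and ID1, the most abundant ID target. Each run is the 250 bases before a start site in RefSeq (build GRCh38.p14), taken for the most upstream start listed where there are several. The motifs searched on both strands were the palindromic SMAD element GTCTAGAC, the GC-rich motif GGCGCC and the short motif CAGAC, which lies within neither of the others. On the minus strand the short motif reads GTCTG. Matches are in capitals.
BMP4 (chr14:53955051-53955300, minus strand): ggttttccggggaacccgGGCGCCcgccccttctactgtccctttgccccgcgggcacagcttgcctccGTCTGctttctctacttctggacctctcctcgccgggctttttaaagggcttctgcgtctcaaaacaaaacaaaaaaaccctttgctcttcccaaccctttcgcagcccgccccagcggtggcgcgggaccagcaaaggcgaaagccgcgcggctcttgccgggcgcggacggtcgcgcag
ENG (chr9:127854659-127854908, minus strand): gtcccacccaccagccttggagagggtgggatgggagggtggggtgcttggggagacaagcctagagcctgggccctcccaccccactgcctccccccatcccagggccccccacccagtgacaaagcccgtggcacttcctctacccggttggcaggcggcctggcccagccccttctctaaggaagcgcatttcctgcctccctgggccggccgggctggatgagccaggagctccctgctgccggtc
SMAD3 (chr15:67065352-67065601, plus strand): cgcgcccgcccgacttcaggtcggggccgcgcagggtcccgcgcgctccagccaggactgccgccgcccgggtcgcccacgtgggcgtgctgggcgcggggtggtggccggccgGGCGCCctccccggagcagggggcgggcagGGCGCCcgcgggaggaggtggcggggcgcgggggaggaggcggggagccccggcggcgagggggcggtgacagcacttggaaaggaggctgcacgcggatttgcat
SMAD6 (chr15:66701986-66702235, plus strand): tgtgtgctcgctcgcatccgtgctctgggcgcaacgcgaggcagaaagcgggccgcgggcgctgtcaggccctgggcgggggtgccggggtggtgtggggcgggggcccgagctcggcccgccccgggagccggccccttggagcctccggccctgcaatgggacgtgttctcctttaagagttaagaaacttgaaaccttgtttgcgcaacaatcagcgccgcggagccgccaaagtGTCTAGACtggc
ID1 (chr20:31605039-31605288, plus strand): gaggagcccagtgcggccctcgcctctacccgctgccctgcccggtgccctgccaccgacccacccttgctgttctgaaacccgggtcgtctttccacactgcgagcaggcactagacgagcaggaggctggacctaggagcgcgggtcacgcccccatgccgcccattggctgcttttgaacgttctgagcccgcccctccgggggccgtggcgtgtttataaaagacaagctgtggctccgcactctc
The table of promoters held 44 of the 49 genes, with 82 start sites. GTCTAGAC occurred in 64 of 35116 promoters (0.18%) and, among the start sites of the 49 genes, before SMAD6 alone. GGCGCC was found before 19 of the 82 start sites (23.2%), against 16.38% of all promoters. For CAGAC these shares were 39.0% of the 82 start sites and 38.0% of all promoters. These are matches of letters in a window, not binding sites.

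Depth lay between 9.4 and 42.5 M expected counts a library (M for mega). Replicate 1 of each group held 22.9 to 42.5 M and replicate 2 held 9.4 to 20.1 M. Counts of the control replicates differed by a chi-square of 1.38 per degree of freedom over genes, and those of the line replicates by 6.97 to 8.2, so a line's 2 libraries were farther apart than the control's. The labelled cell type was checked with 6 markers of GIST and its presumed cell of origin, the interstitial cell of Cajal (KIT, ANO1, ETV1, PRKCQ, FOXF1 and BARX1). None was at 0, and they summed to 983 to 1230 TPM (length-corrected transcript levels scaled to a fixed total) in the lines and 1660 to 1680 TPM in control. Of other cell types, 3 fibroblast markers (PDGFRA, DCN and LUM) summed to 732 to 1000 TPM in the lines and 451 to 453 TPM in control. Markers of epithelium, leukocytes, endothelium and smooth muscle summed to at most 1.78 TPM in any library. The part of the marker shifts in the results below was not tested.

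SMAD4, the common partner of the receptor SMADs, had 0 counts in every library of InsE, InsF, InsG, InsH and control. Over all 10 libraries and 223.4 M counts, this allows a level of up to 0.0134 CPM (counts scaled to library size, here a bound of 3 counts over the summed libraries). The gene lies at chr18:51028394-51085045 on the plus strand of hg38. Among its protein-coding neighbours, ELAC1 and RP11-729L2.2 also had 0 counts, and ME2, which encodes a mitochondrial malic enzyme, had 1 count in all. RP11-729L2.2 overlaps both ELAC1 and SMAD4 in position, so it is not a separate stretch of DNA. These 4 genes span 206 kb, from chr18:50878734 to chr18:51085045. On one side the next protein-coding gene, MRO, had 87 counts, with at least 3 in every library. Its mean was only 0.281 TPM, so the edge of the stretch is not well defined on that side. On the other side MEX3C, which lies 90 kb beyond SMAD4, had 16195 counts and a mean of 35.6 TPM. MRO and MEX3C lie 349 kb apart, and the 4 protein-coding genes between them were as empty in control as in the lines. Noncoding genes there were not looked at. Whether this DNA is present in the cells was not tested. Every change described below was measured in cells in which no SMAD4 transcript was detectable at this depth.

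**Figure D1:**
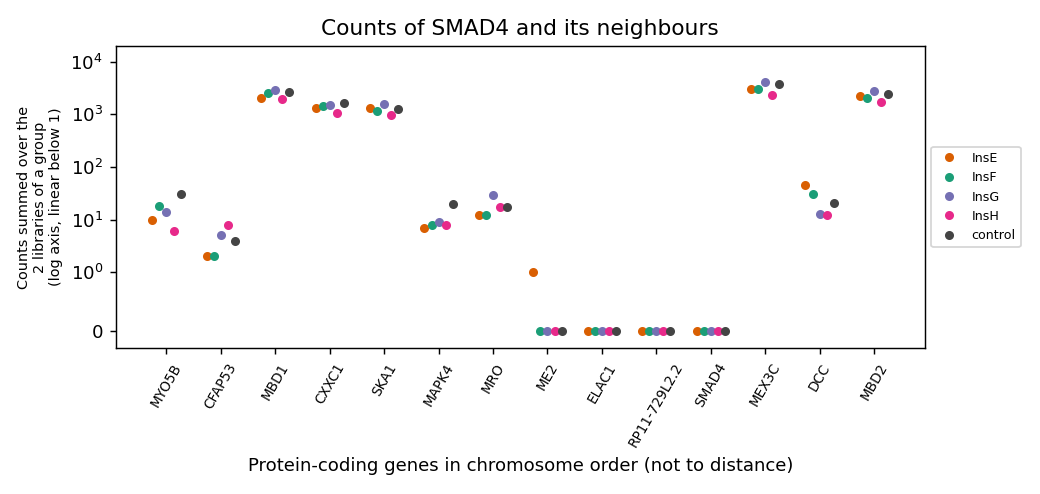
Counts of SMAD4 and neighbouring genes, summed over the 2 libraries of each group (vertical axis, log scale that is linear below 1), with genes in chromosome order and not to distance. ME2, ELAC1, RP11-729L2.2 and SMAD4 sit at 0 in all 5 groups apart from 1 count of ME2 in InsE, while MEX3C has 2373 to 4049 counts in every group.

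The other 48 genes covered a wide range of levels. By mean TPM over the 10 libraries, 3 of the 49 genes were at 100 TPM or more, 16 at 10 to 100, 20 at 1 to 10 and 10 under 1. ENG, which encodes the co-receptor endoglin, was the most abundant, at 370 to 585 TPM in the lines and 754 to 777 TPM in control. ID1 (127 to 148 TPM in the lines, 146 to 149 in control) and BMP4 (93.2 to 181 TPM in the lines, 75.5 to 80.0 in control) came next. BMPR1A, a type I BMP receptor, lay at 72.0 to 134 TPM in the lines and 91.0 to 92.6 in control. TGFB1, the most abundant of the TGF-beta ligands, had 58.4 to 84.3 TPM in the lines and 70.7 to 72.7 in control. Its relatives were far lower: TGFB3 had 4.74 to 8.84 TPM in the lines and 4.07 to 5.21 in control, and TGFB2 did not exceed 0.16 TPM in any library.

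**Figure D2:**
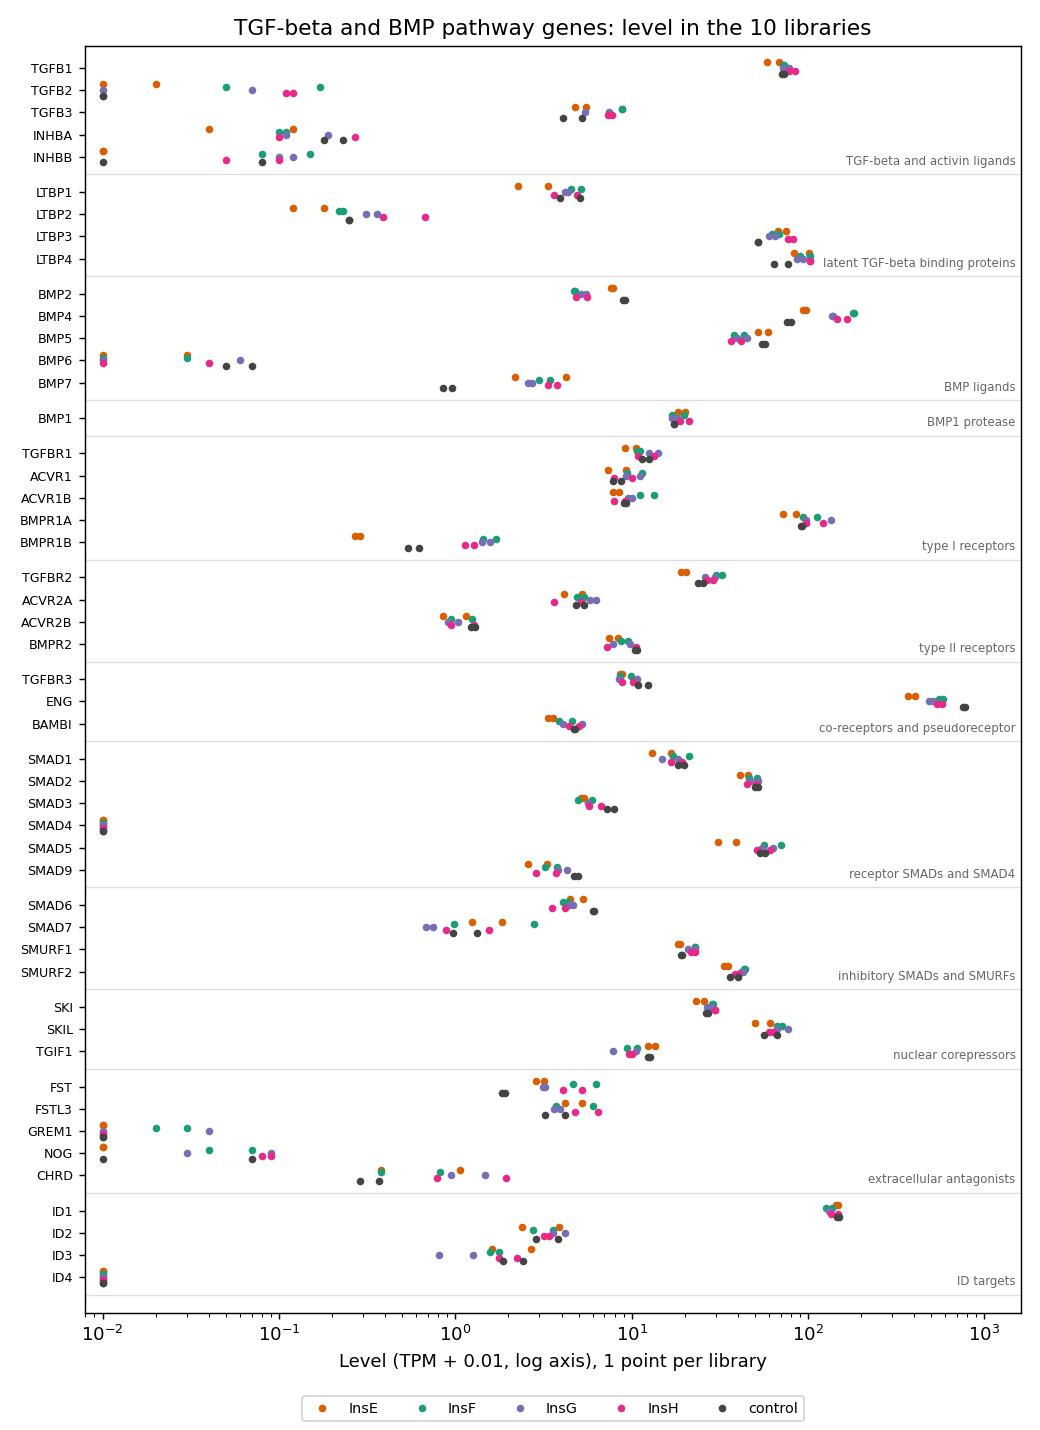
Level of each of the 49 genes in TPM + 0.01 (horizontal log axis), with 1 point per library coloured by group and genes grouped by role. ENG lies at the right at 370 to 777 TPM, and SMAD4 and ID4 are at 0 in all 10 libraries.

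A filter on low counts left 41 of the 49 genes for testing. The 8 that did not pass were TGFB2, INHBA, INHBB, BMP6, SMAD4, GREM1, NOG and ID4. INHBA and INHBB, which encode subunits of activin, had 62 and 28 counts over all 10 libraries. The BMP antagonists GREM1 and NOG had 5 and 9 counts, the ligands TGFB2 and BMP6 had 10 and 8, and ID4 had 0 like SMAD4. No comparison was made for these in the main fit, while a fit without the filter tested 47 of the 49 genes.

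Against control, InsE had 12 of the 41 tested genes past the test (3 higher, 9 lower), InsF had 16 (6 higher, 10 lower), InsG had 12 (3 higher, 9 lower) and InsH had 12 (4 higher, 8 lower). The test was edgeR's quasi-likelihood test on the expected counts, with p adjusted over 15554 genes and a threshold of 0.05. Over all tested genes, the share past it was 23.2% for InsE, 22.3% for InsF, 20.3% for InsG and 18.4% for InsH, so the shares among the pathway genes (29.3%, 39.0%, 29.3% and 29.3% of the 41) stand against a high background. By direction, the background was 10.8% higher and 12.4% lower for InsE, 10.9% and 11.3% for InsF, 9.86% and 10.5% for InsG, 8.95% and 9.46% for InsH. The median log2 change of the 41 genes was -0.14 for InsE, -0.04 for InsF, -0.06 for InsG and -0.05 for InsH, and that of all tested genes was 0.01 in each. With the 4 lines averaged, 17 genes passed (5 higher, 12 lower) at a background of 27.6%, made up of 13.1% higher and 14.5% lower. These comparisons share the same control libraries. Without 1 library at a time, the counts ran from 7 to 12 for InsE, 10 to 16 for InsF, 8 to 13 for InsG, 9 to 12 for InsH and 9 to 18 for the 4 lines averaged. The InsE count was 7 without either control replicate, the InsF count 10 without control replicate 2, and that of the averaged lines 9 without control replicate 1.

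**Figure D3:**
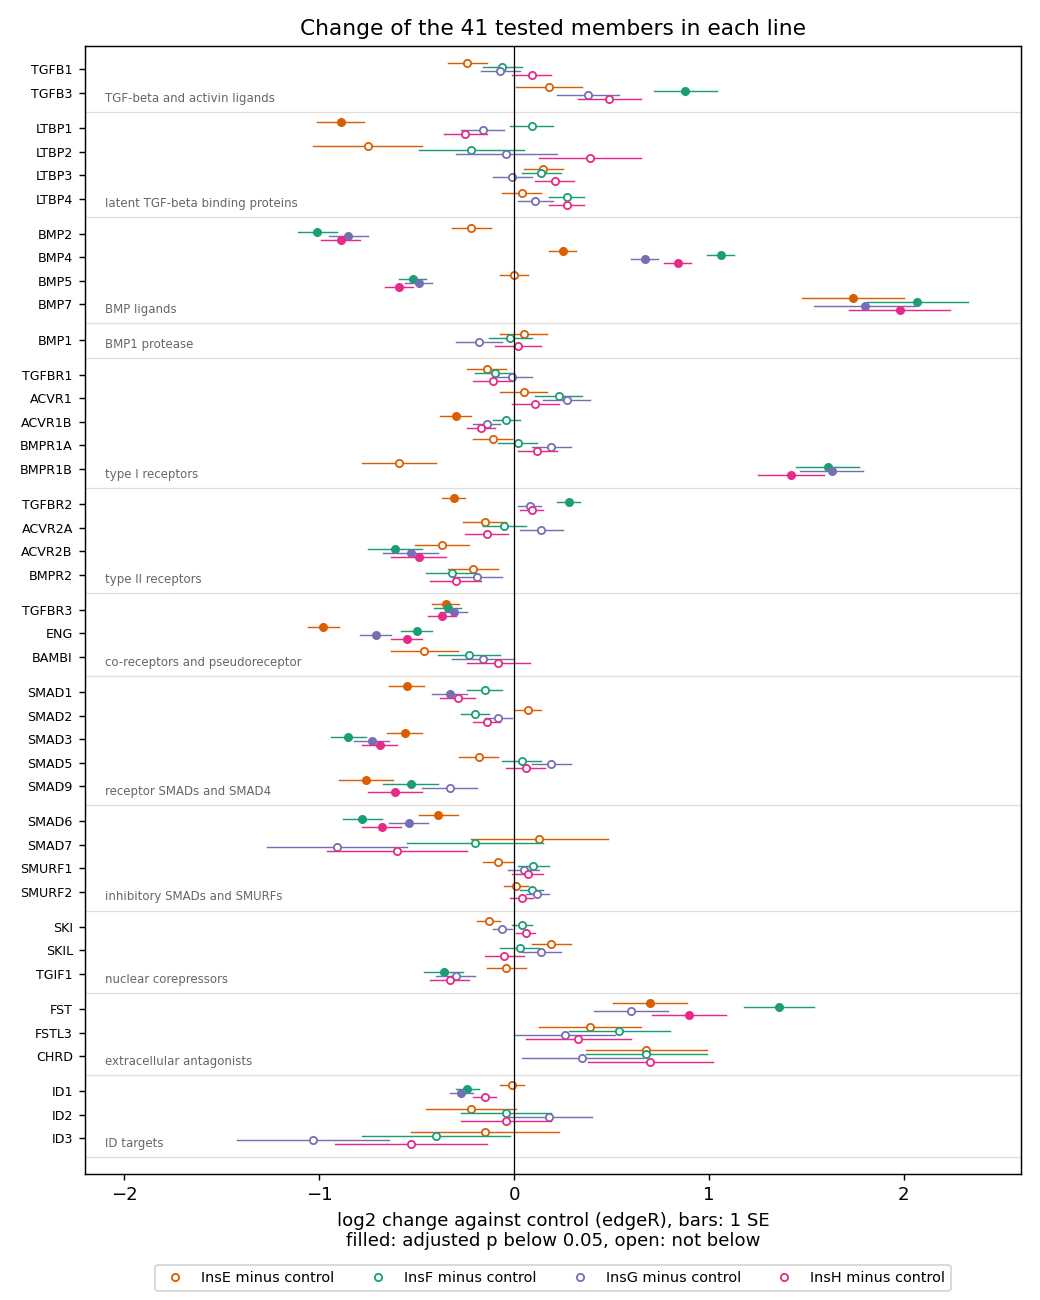
Log2 change against control of the 41 tested genes (horizontal axis) in InsE, InsF, InsG and InsH, with bars of 1 SE, and filled points where the adjusted p was below 0.05. BMP7 lies at 1.74 to 2.07 in all 4 lines, and BMPR1B at 1.42 to 1.63 in InsF, InsG and InsH but at -0.59 in InsE.

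Genes that passed in all 4 lines in 1 direction numbered 2 higher, BMP4 and BMP7, and 4 lower, ENG, SMAD3, SMAD6 and TGFBR3. The matching shares of all tested genes were 3.01% (higher) and 4.23% (lower). A further 4 genes, BMP2, BMP5, BMPR1B and ACVR2B, passed in InsF, InsG and InsH without passing in InsE, and 22 genes passed in no line. The shares of all tested genes with these last patterns are not given here, so the counts have no background beside them.

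The 4 tested BMP ligands, secreted signals of the BMP branch, all passed in InsF, InsG and InsH, with BMP4 and BMP7 higher and BMP2 and BMP5 lower. BMP4 (chr14:53949736-53958761) had 87.9 and 95.2 CPM in InsE, 154 and 165 in InsF, 120 and 123 in InsG, 131 and 144 in InsH, against 77.7 and 75.3 CPM in control (CPM here scaled by TMM factors). All 8 line libraries were above both control libraries, with InsE nearest to them. Its log2 change was 1.06 ± 0.07 (SE) in InsF (adjusted p = 9.49e-06), 0.84 ± 0.07 in InsH (adjusted p = 5.49e-05) and 0.67 ± 0.07 in InsG (adjusted p = 0.000207). In InsE it was 0.25 ± 0.07 (adjusted p = 0.0275). That InsE call was lost without InsE replicate 2 (adjusted p = 0.115), control replicate 1 (0.112) or control replicate 2 (0.153).

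BMP7, known for its part in kidney and skeletal development, was low in this cell line. It had 2.72 and 3.91 CPM in InsE, 3.73 and 4.37 in InsF, 3.13 and 3.67 in InsG, 3.49 and 4.14 in InsH, against 1.11 and 0.77 CPM in control. All 8 line libraries lay above the control pair. InsE and InsH each overlapped the other lines, and InsG lay below InsF. The log2 changes were 1.74 ± 0.26, 2.07 ± 0.26, 1.80 ± 0.26 and 1.98 ± 0.26 in InsE, InsF, InsG and InsH, with adjusted p from 0.000481 in InsF to 0.00153 in InsE. No difference among the 4 lines was called for BMP7 (adjusted p = 0.666).

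BMP2, a ligand close in sequence to BMP4, had 17.4 and 18.6 CPM in InsE, 10.1 and 10.6 in InsF, 11.7 and 11.4 in InsG, 10.2 and 12.5 in InsH, against 21.0 and 20.6 CPM in control. InsF lay below InsG, InsH spanned both, InsE lay above all 6 of their libraries, and control lay above InsE. The log2 change was -1.01 ± 0.10 in InsF, -0.85 ± 0.10 in InsG and -0.89 ± 0.10 in InsH (adjusted p = 0.000127, 0.000405 and 0.000355), and -0.22 ± 0.10 in InsE (adjusted p = 0.132).

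BMP5, another secreted BMP, had 147 and 136 CPM in InsE, 103 and 94.7 in InsF, 105 and 96.3 in InsG, 98.0 and 90.5 in InsH, against 145 and 139 CPM in control. InsE overlapped control, and the 6 libraries of InsF, InsG and InsH lay below both. The log2 change was -0.52 ± 0.07 in InsF, -0.49 ± 0.07 in InsG and -0.59 ± 0.07 in InsH (adjusted p = 0.000969, 0.00162 and 0.000613), and limma on log2(TPM + 1) did not call it in InsG (0.064). On the length-corrected scale, the 5 BMP ligand genes summed to 157 to 166 TPM for InsE, 227 to 230 for InsF, 185 to 189 for InsG and 195 to 212 for InsH, against 140 to 147 TPM in control. BMP4 made up 58.4% to 59.2% of that sum for InsE, 77.8% to 79.6% for InsF, 71.8% to 74.5% for InsG and 74.2% to 78.5% for InsH, against 53.9% to 54.4% in control.

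**Figure D4:**
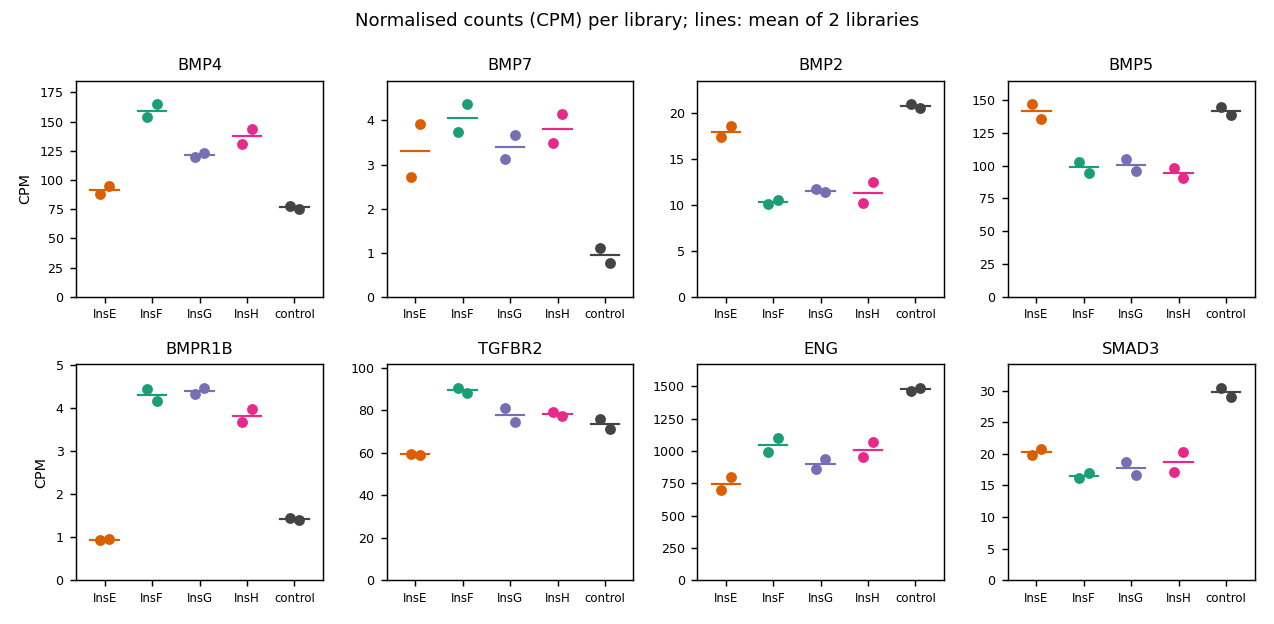
Normalised counts (CPM, vertical axes from 0) of 8 genes in the 2 libraries of each group, with a line at the group mean. BMP4 and BMP7 are above control in all 8 line libraries, ENG and SMAD3 below it, and InsE stands apart from InsF, InsG and InsH in BMP2, BMP4, BMP5, BMPR1B, TGFBR2 and ENG.

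Among the TGF-beta ligands, TGFB1 passed in no line and TGFB3 passed in InsF. TGFB1 had 96.5 and 111 CPM in InsE, 113 and 121 in InsF, 109 and 124 in InsG, 118 and 141 in InsH, against 121 and 123 CPM in control. InsE lay below control, while InsG and InsH overlapped it. TGFB3 had 5.19 and 6.56 CPM in InsE, 9.08 and 9.49 in InsF, 5.93 and 7.52 in InsG, 6.95 and 7.29 in InsH, against 5.47 and 4.57 CPM in control. InsF was the highest line, at a log2 change of 0.88 ± 0.16 (adjusted p = 0.00388). With the lines averaged, TGFB3 was called (0.48 ± 0.13, adjusted p = 0.0216), but not without control replicate 1 (adjusted p = 0.0715) or control replicate 2 (0.218), or in DESeq2's test (0.087).

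Some latent TGF-beta binding proteins, LTBP1 among them, anchor the latent ligand in the matrix. LTBP1 had 7.88 and 8.57 CPM in InsE, 14.9 and 17.5 in InsF, 13.7 and 13.2 in InsG, 12.1 and 13.4 in InsH, against 14.3 and 16.0 CPM in control. InsE was below all other groups. InsG and InsH overlapped each other and lay below InsF and control, which also overlapped. The log2 change in InsE was -0.89 ± 0.12 (adjusted p = 0.000635), and the other 3 lines did not pass. Limma on log2(TPM + 1) did not call it in InsE (0.116). The averaged lines passed at -0.30 ± 0.08 (adjusted p = 0.0247), which was lost without control replicate 1 (0.0741) or control replicate 2 (0.253). LTBP4, the most abundant of the 4 in TPM, had 87.8 and 98.0 CPM in InsE, 99.8 and 118 in InsF, 93.5 and 100 in InsG, 102 and 115 in InsH, against 87.2 and 92.3 CPM in control, and passed in no line. LTBP2 and LTBP3 also passed in no line. BMP1, a protease that processes procollagen and antagonists such as chordin, had 30.9 to 40.5 CPM in the lines and 35.3 to 36.5 CPM in control, with no call.

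Of the 5 type I receptors, BMPR1B moved most. It had 0.928 and 0.952 CPM in InsE, 4.45 and 4.17 in InsF, 4.32 and 4.48 in InsG, 3.67 and 3.98 in InsH, against 1.44 and 1.39 CPM in control. InsF and InsG overlapped, InsH lay between them and control, and InsE lay below control. The log2 change was 1.61 ± 0.16 in InsF (adjusted p = 0.000154), 1.63 ± 0.16 in InsG (0.000183) and 1.42 ± 0.17 in InsH (0.000445), and -0.59 ± 0.19 in InsE (0.106). On the log2(TPM + 1) scale, limma did not call it in InsF, InsG or InsH (adjusted p = 0.0558, 0.0712 and 0.162). Its close relative BMPR1A, far more abundant in TPM, had 197 to 280 CPM in the lines and 227 to 229 CPM in control and passed in no line. TGFBR1, the TGF-beta type I receptor, and ACVR1 passed in no line either. ACVR1B, an activin receptor, passed in InsE at a log2 change of -0.30 ± 0.08 (adjusted p = 0.0191), a call lost without InsE replicate 1 (0.191), control replicate 1 (0.14) or control replicate 2 (0.071), and in limma on log2(TPM + 1) (0.438).

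TGFBR2, the type II receptor that binds TGF-beta, was the one gene of the 41 that passed in opposite directions. It had 59.7 and 58.9 CPM in InsE, 90.8 and 88.3 in InsF, 81.1 and 74.4 in InsG, 79.5 and 77.2 in InsH, against 76.0 and 71.2 CPM in control. InsE lay below and InsF above all other groups, and InsG overlapped control. The log2 change was -0.31 ± 0.06 in InsE (adjusted p = 0.00778) and 0.28 ± 0.06 in InsF (0.0113). The InsE call was lost without control replicate 1 (0.0858), and the InsF call without InsF replicate 1 (0.0774) or control replicate 2 (0.132), and limma on log2(TPM + 1) made neither call (0.0727 and 0.0533). ACVR2B, an activin receptor, had 6.04 to 8.16 CPM in the lines and 9.65 to 10.1 CPM in control. It passed for the averaged lines at -0.50 ± 0.10 (adjusted p = 0.00671) but not without control replicate 1 (0.102) or control replicate 2 (0.0561) or in limma on log2(TPM + 1) (0.576), and its calls in InsF (adjusted p = 0.0125), InsG (0.0238) and InsH (0.0357) were lost as well without either control replicate, without InsF replicate 1 (0.105), without InsG replicate 1 or 2 (0.139 and 0.0655) and without InsH replicate 1 (0.25). ACVR2A and BMPR2 passed in no line.

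ENG and TGFBR3 (betaglycan), co-receptors that present ligand to the signalling receptors, were lower in all 4 lines. ENG (chr9:127815012-127854756) had 697 and 795 CPM in InsE, 989 and 1100 in InsF, 859 and 940 in InsG, 949 and 1070 in InsH, against 1460 and 1490 CPM in control. No line library reached the control pair, and InsE was the lowest group. ENG and SMAD3 have exons overlapped by a gene on the opposite strand, whose reads cannot be told apart here. The log2 change was -0.98 ± 0.08 for InsE, -0.50 ± 0.08 for InsF, -0.71 ± 0.08 for InsG and -0.55 ± 0.08 for InsH, with adjusted p = 5.86e-05, 0.0025, 0.000416 and 0.00182. Endoglin is best known as a protein of endothelial cells, whose 3 markers PECAM1, CDH5 and VWF summed to 0.2 to 0.66 TPM in the lines and 0.2 to 0.21 TPM in control. TGFBR3 had 33.6 to 36.8 CPM in the lines and 44.5 to 45.0 CPM in control, without overlap, and its log2 change ran from -0.31 to -0.37. Its call was lost in InsE without control replicate 2 (adjusted p = 0.0532), in InsF without control replicate 1 (0.0548) or 2 (0.0571), in InsG without control replicate 1 (0.0748) or 2 (0.0831), and in InsH without control replicate 2 (0.0504). With limma on log2(TPM + 1) it was called in none of the 4 lines (adjusted p = 0.11 to 0.281). BAMBI, a pseudoreceptor that blocks signalling, passed in no line.

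The receptor SMADs carry the signal to the nucleus. SMAD3, of the TGF-beta and activin branch, had 19.8 and 20.8 CPM in InsE, 16.1 and 17.0 in InsF, 18.7 and 16.7 in InsG, 17.1 and 20.3 in InsH, against 30.5 and 29 CPM in control. All 8 line libraries were below control. InsE lay above InsF and InsG and overlapped InsH, and InsF lay below InsH. Its log2 change was -0.56 ± 0.09 for InsE, -0.85 ± 0.09 for InsF, -0.73 ± 0.09 for InsG and -0.69 ± 0.09 for InsH, with adjusted p from 0.00024 in InsF to 0.00261 in InsE. On the log2(TPM + 1) scale, limma did not call it in InsF, InsG or InsH (adjusted p = 0.0728, 0.104 and 0.24). SMAD2, the other SMAD of that branch, had 48.6 to 62.8 CPM in the lines and 58.3 to 60.4 CPM in control and passed in no line.

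Of the BMP-branch SMADs, SMAD9 had 8.90 and 12 CPM in InsE, 12.3 and 11.1 in InsF, 13.8 and 13.0 in InsG, 12.1 and 9.86 in InsH, against 17.4 and 16.6 CPM in control. All line libraries were below control. InsG lay above the other 3 lines, which overlapped each other. With the lines averaged, its log2 change was -0.56 ± 0.10 (adjusted p = 0.0038, but 0.0718 without control replicate 1 and 0.0709 in limma on log2(TPM + 1)). It passed in InsE, InsF and InsH, and each of these calls was lost without some library: InsE replicate 1 for InsE (0.0651), any of InsF replicate 1, InsF replicate 2, control replicate 1 and control replicate 2 for InsF (0.0569, 0.0955, 0.135 and 0.0791), and InsH replicate 2, control replicate 1 or control replicate 2 for InsH (0.0756, 0.106 and 0.064). In limma on log2(TPM + 1) none of the 3 was called (0.0547, 0.176 and 0.125). SMAD1 had 10.8 and 11.3 CPM in InsE, against 17.1 and 14.9 CPM in control, and passed there at -0.55 ± 0.09 (adjusted p = 0.00297), but not in limma on log2(TPM + 1) (0.206). It also passed in InsG and for the averaged lines. Both calls were lost without control replicate 1, in DESeq2's test and in limma on log2(TPM + 1). The InsG call was lost too without InsG replicate 1 or 2, with library size alone as the scaling and with no filter on low counts. SMAD5, the most abundant SMAD in TPM, had 164 and 140 CPM in InsE, 187 and 167 in InsF, 209 and 185 in InsG, 194 and 166 in InsH, against 174 and 171 CPM in control, and passed in no line.

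SMAD6, the inhibitory SMAD that acts mainly on BMP receptors, had 12.5 and 13.0 CPM in InsE, 9.39 and 10.2 in InsF, 10.9 and 12.3 in InsG, 9.79 and 11.3 in InsH, against 16.7 and 16.6 CPM in control. All line libraries were below control, and InsE was the line nearest to it. Its log2 change was -0.39 ± 0.10 for InsE, -0.78 ± 0.10 for InsF, -0.54 ± 0.10 for InsG and -0.68 ± 0.10 for InsH (adjusted p = 0.0206, 0.000633, 0.00485 and 0.0018). The InsE call was lost without InsE replicate 1 (0.13), InsE replicate 2 (0.0505), control replicate 1 (0.114) or control replicate 2 (0.097), and the InsG call without InsG replicate 1 (0.0742). With limma on log2(TPM + 1) SMAD6 was not called in InsE, InsF or InsG (0.192, 0.0569 and 0.111). SMAD6 is also the gene with GTCTAGAC among the promoters shown above. SMAD7, the general inhibitory SMAD, had 0.958 to 2.96 CPM in the lines and 1.80 to 2.18 CPM in control, and its SE of 0.35 to 0.36 in log2 left no call. The ubiquitin ligases SMURF1 and SMURF2, which mark SMADs and receptors for degradation, passed in no line. SMURF2, the more abundant in TPM, had 84.2 to 92.4 CPM in the lines and 82.9 to 86.3 CPM in control.

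The corepressors SKI and SKIL, which bind SMADs in the nucleus, passed in no line. SKIL had 209 and 185 CPM in InsE, 187 and 169 in InsF, 204 and 177 in InsG, 182 and 152 in InsH, against 175 and 172 CPM in control. TGIF1 passed in InsF (-0.36 ± 0.10, adjusted p = 0.0323) and was lost there without InsF replicate 1 (0.159), InsF replicate 2 (0.0832), control replicate 1 (0.144) or control replicate 2 (0.137), and in limma on log2(TPM + 1) (0.206). Its averaged-line call (adjusted p = 0.0376) was likewise lost without either control replicate (0.211 and 0.208), InsE replicate 1 (0.063), InsF replicate 1 (0.0648), InsG replicate 1 (0.0689) or InsH replicate 2 (0.0583).

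Extracellular antagonists bind ligands before they reach a receptor. FST (follistatin, an activin antagonist) had 4.19 and 5.08 CPM in InsE, 8.15 and 6.12 in InsF, 4.49 and 3.85 in InsG, 5.05 and 5.47 in InsH, against 2.65 and 2.98 CPM in control. All line libraries were above control, with InsF the highest. Its log2 change was 1.36 ± 0.18 in InsF (adjusted p = 0.000765), 0.90 ± 0.19 in InsH (0.00973) and 0.70 ± 0.19 in InsE (0.027), and 0.60 ± 0.19 in InsG (0.0505). Without control replicate 1 the calls in InsH (0.0966), InsE (0.172) and the averaged lines (0.0588) were lost. The InsE call was lost as well without InsE replicate 1 (0.0551), InsE replicate 2 (0.0975) or control replicate 2 (0.0822), and in limma on log2(TPM + 1) (0.0992). FSTL3, the most abundant antagonist of the list in TPM, had 3.22 to 5.85 CPM in the lines and 3.03 to 3.35 CPM in control and passed in no line. CHRD (chordin, a BMP antagonist) had 0.806 to 1.21 CPM in the lines and 0.565 to 0.738 CPM in control, without overlap and without a call.

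ID genes encode inhibitors of basic helix-loop-helix factors and are standard readouts of BMP signalling. ID1 had 79.5 and 79.9 CPM in InsE, 69.1 and 66.5 in InsF, 66.2 and 67.2 in InsG, 74.4 and 69.7 in InsH, against 81.0 and 79.6 CPM in control. InsE lay with control, and the 6 libraries of InsF, InsG and InsH lay below both. Its log2 change was -0.24 ± 0.06 for InsF (adjusted p = 0.0142), -0.27 ± 0.06 for InsG (0.0101) and -0.15 ± 0.06 for InsH (0.0924). Both calls were lost without either control replicate (0.112 and 0.0744 in InsF, 0.0923 and 0.0652 in InsG), without InsF replicate 2 (0.0809) or InsG replicate 1 (0.0796), and in limma on log2(TPM + 1) (0.176 in InsF, 0.192 in InsG). The averaged-line call (-0.17 ± 0.04, adjusted p = 0.0189) was lost without control replicate 1 (0.189) or 2 (0.122) and in limma on log2(TPM + 1) (0.253). ID2 and ID3, at 0.537 to 3.01 CPM in the lines and 1.27 to 2.72 CPM in control, passed in no line.

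The lines were also compared with one another, where control enters the fit through the shared estimate of spread and is not a group compared. Of the 41 genes, 9 passed the test of any difference among the 4 lines, against 13.2% of all tested genes: LTBP1, BMP2, BMP4, BMP5, BMPR1B, TGFBR2, ENG, FST and ID1. InsE against the mean of InsF, InsG and InsH gave 14 calls (6 higher, 8 lower), against 24.2% of all tested genes (11.4% higher, 12.8% lower). Of these, 7 held without any 1 library. BMPR1B had a log2 difference of -2.15 ± 0.16 (adjusted p = 2.14e-05), LTBP1 of -0.79 ± 0.10 (0.000507, but 0.0569 in limma on log2(TPM + 1)), BMP2 of 0.70 ± 0.08 (0.00033) and BMP4 of -0.60 ± 0.06 (9.62e-05). BMP5 was at 0.53 ± 0.06 (0.000216), TGFBR2 at -0.46 ± 0.05 (0.000328) and ENG at -0.40 ± 0.07 (0.00307). In each of these 7 genes the 2 InsE libraries lay outside the range of the 6 others. The other 7 calls, LTBP2 (-0.79 ± 0.24, adjusted p = 0.0415), SMAD1, SMAD2, SMAD5, SMAD6, TGIF1 and ID1, were each lost without at least 1 library. Without InsE replicate 1 or InsE replicate 2 the count was 8, and without InsF replicate 1 or control replicate 1 it was 9. Among the 4 lines, without InsE replicate 1, the count was 5 and the calls of ENG (adjusted p = 0.0973) and LTBP1 (0.0548) were lost. FST lost that call without any 1 of 9 libraries (all but InsF replicate 2, with adjusted p up to 0.271), and so did ID1 (all but InsH replicate 1, up to 0.205). In limma on log2(TPM + 1) BMP5 (0.0834), LTBP1 (0.228), FST (0.0919) and ID1 (0.401) were not called among the 4 lines.

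No gene of the 41 passed edgeR's test of any difference among InsF, InsG and InsH, for which 0.09% of all tested genes passed. At an unadjusted p under 0.05 there were 5, BMP4, TGFB3, LTBP1, TGFBR2 and FST. The share of all tested genes at that unadjusted threshold is not given here, and the 0.09% does not apply to it. DESeq2's test called 1 gene, BMP4. BMP4 averaged 159 ± 8.2 CPM in InsF against 122 ± 2.1 CPM in InsG and 137 ± 9.2 CPM in InsH (SD over 2 libraries each), with an adjusted p of 0.234 in edgeR's test.

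Same-numbered libraries of the lines deviated together from their group means, with correlations over genes of 0.388 to 0.463 in the 6 pairs of lines, and replicate 1 was the deeper library in each. With replicate number as a block, 3 genes passed among InsF, InsG and InsH: BMP4 (adjusted p = 0.00128), ENG (0.0104) and TGFBR2 (0.0415). The block gave 20 calls among the 4 lines and 24 for InsE against the other lines (8 higher, 16 lower). The share of all tested genes called with the block is not given here, so none of these counts has a background beside it. Calls new among the 4 lines included TGFB1 (0.00225), TGFB3 (0.00805), LTBP4 (0.00321), BMPR1A (0.000817), SMAD5 (0.000265) and SKIL (0.00576).

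A wider list of 104 pathway genes was set beside the 49, and 73 of the 104 passed the filter. The wider list was chosen with earlier results of these data known, so its share of called genes may reflect that choice. For the averaged lines, 37 of the 73 passed (12 higher, 25 lower) at the background of 27.6%, with a median log2 change of -0.08. That background was 13.1% higher and 14.5% lower, and it applies to each sublist count for the averaged lines below. InsE had 5 higher and 25 lower, InsF 12 and 21, InsG 11 and 18, InsH 9 and 20, where 23.2%, 22.3%, 20.3% and 18.4% of all tested genes passed. Among the 4 lines 24 passed, at a background of 13.2%. InsE against the other lines gave 31 calls (8 higher, 23 lower), at a background of 24.2%.

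Of 22 further ligands 9 were tested, and 3 were higher and 2 lower in the averaged lines. GDF10, a ligand of the BMP group, had 99.0 and 103 CPM in InsE, 49.4 and 48.6 in InsF, 51.2 and 53.6 in InsG, 51.8 and 59.0 in InsH, against 159 and 155 CPM in control. InsF, InsG and InsH lay together below InsE, and InsE below control, and the averaged log2 change was -1.35 ± 0.05 (adjusted p = 3.46e-07). GDF11, a ligand close to myostatin, passed in each line at a log2 change of -0.64 to -0.82, with 75.8 to 89.5 CPM in the lines and 133 to 139 CPM in control. GDF15, a stress-induced ligand that acts through GFRAL, had 2.34 and 2.33 CPM in InsE, 4.49 and 4.37 in InsF, 2.92 and 4.21 in InsG, 3.28 and 3.40 in InsH, against 1.01 and 0.975 CPM in control. All lines were above control, with an averaged log2 change of 1.73 ± 0.19 (adjusted p = 0.000152).

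Further receptors and co-receptors were 7, of which 4 were tested and all passed for the averaged lines, 1 higher and 3 lower. ACVRL1 (ALK1), the type I receptor that works with endoglin, had 50.1 and 57.0 CPM in InsE, 66.9 and 69.9 in InsF, 59.5 and 68.6 in InsG, 65.2 and 70.1 in InsH, against 42.2 and 44.7 CPM in control. All line libraries were above control, opposite to ENG, and the averaged log2 change was 0.53 ± 0.07 (adjusted p = 0.000627). Its InsE call (0.29 ± 0.09, adjusted p = 0.0436) was lost without InsE replicate 2 (0.168), InsF replicate 2 (0.0565), InsH replicate 2 (0.0518), control replicate 1 (0.237) or control replicate 2 (0.107), and in limma on log2(TPM + 1) (0.568). NEO1, which binds BMP co-receptors of the RGM family, had 35.1 and 35.2 CPM in InsE, 57.1 to 63.7 CPM in InsF, InsG and InsH, and 73.8 and 74.4 CPM in control, with -1.08 ± 0.07 log2 in InsE (adjusted p = 1.05e-05). RGMA, a BMP co-receptor, passed for the averaged lines at -0.44 ± 0.15 (adjusted p = 0.0488), a call lost without control replicate 1 (0.191), control replicate 2 (0.273) and without replicate 1 of InsE, InsF, InsG or InsH or replicate 2 of InsH (0.0504 to 0.0792), and in limma on log2(TPM + 1) (0.37).

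Among 13 further extracellular modulators, 6 were tested and 2 rose in the averaged lines. FSTL1, a secreted follistatin-like protein, had 1090 to 1390 CPM in the lines and 955 to 964 CPM in control, with an averaged log2 change of 0.41 ± 0.03 (adjusted p = 3.33e-05). In InsE its change was 0.19 ± 0.04 in counts (adjusted p = 0.00937), lost without InsE replicate 1 (0.0636), control replicate 1 (0.0975) or control replicate 2 (0.0782), and -0.15 on the log2(TPM + 1) scale. CRIM1, a membrane protein that binds BMPs, had 0.864 and 0.317 CPM in InsE, 3.49 and 3.3 in InsF, 1.45 and 1.97 in InsG, 1.77 and 1.99 in InsH, against 0.905 and 0.924 CPM in control. InsE lay below control and the other lines above it. Against control CRIM1 passed in InsF alone (1.89 ± 0.31, adjusted p = 0.00246), and InsE differed from the other lines by -1.67 ± 0.30 (0.00353). Its averaged call (0.84 ± 0.27, adjusted p = 0.0441) was lost without control replicate 1 (0.254), control replicate 2 (0.211), InsE replicate 1 (0.212), and either replicate of InsF or InsH or InsG replicate 2 (0.0587 to 0.0778), and in DESeq2's test (0.174).

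Genes of latent TGF-beta activation and storage numbered 9, of which 6 were tested, and 1 was higher and 3 lower in the averaged lines. FBN1, the fibrillin that anchors latent complexes, had 480 and 463 CPM in InsE, 674 to 715 CPM in InsF, InsG and InsH, and 961 and 949 CPM in control. Control was highest, InsE lowest, and the log2 change was -1.02 ± 0.04 in InsE (adjusted p = 1.83e-06) and -0.60 ± 0.03 over the lines (3.05e-06). THBS1 (thrombospondin, an activator of latent TGF-beta) had 423 and 441 CPM in InsE, 1030 and 1070 in InsF, 740 and 765 in InsG, 793 and 838 in InsH, against 488 and 479 CPM in control. InsE was below control and the other lines above it, at -1.0 ± 0.04 log2 between InsE and the other lines (adjusted p = 9.64e-07). The InsE call against control (-0.16 ± 0.05, adjusted p = 0.0392) was lost without InsE replicate 1 (0.184), InsE replicate 2 (0.0685), control replicate 1 (0.201) or control replicate 2 (0.142), and with library size alone as the scaling (0.131). FURIN, the protease that cleaves TGF-beta precursors, had 21.5 and 23.8 CPM in InsE against 35.9 and 37.0 CPM in control (-0.70 ± 0.10, adjusted p = 0.00108). Its averaged call (adjusted p = 0.0114) was lost without control replicate 1 (0.0908) or 2 (0.113).

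All 16 intracellular regulators were tested, and 1 was higher and 5 lower in the averaged lines, against 13.1% and 14.5% of all tested genes. PMEPA1, a target gene whose protein blocks TGF-beta signalling, changed by -0.46 ± 0.08 (adjusted p = 0.00284), with 17.7 to 25.2 CPM in the lines and 27.8 to 28.1 CPM in control. ZFYVE9 (SARA), which brings SMAD2 and SMAD3 to the receptor, changed by -0.33 ± 0.05 (adjusted p = 0.00184). Neither PMEPA1 (0.176) nor ZFYVE9 (0.119) was called in limma on log2(TPM + 1). RNF111 (Arkadia), a ubiquitin ligase, changed by -0.28 ± 0.05 in counts (adjusted p = 0.00332), but not without control replicate 1 (0.0696), and by 0.02 on the log2(TPM + 1) scale. At the same background, 10 of 12 nuclear partners of SMADs were tested and 5 were lower, with none higher. They included the coactivators EP300 at -0.51 ± 0.06 (adjusted p = 0.0002, but 0.0969 in limma on log2(TPM + 1)) and CREBBP at -0.47 ± 0.05 (0.000154), and the BMP-branch zinc-finger partner ZNF423 at -0.68 ± 0.06 (7.41e-05). ZNF423 had 13.4 to 15.8 CPM in the lines and 22.4 to 24.1 CPM in control.

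Of 17 genes widely used as TGF-beta targets, 15 were tested, and 4 were higher and 4 lower in the averaged lines. InsE against the other lines gave 10 calls, 3 higher and 7 lower, where 11.4% of all tested genes were higher and 12.8% lower. TGFBI, a secreted matrix protein, had 7.55 and 9.31 CPM in InsE, 48.3 and 46.0 in InsF, 30.3 and 34.5 in InsG, 34.0 and 35.1 in InsH, against 10.4 and 9.24 CPM in control. InsE overlapped control, and the 6 other line libraries were above both, at a log2 difference of -2.2 ± 0.10 between InsE and the other lines (adjusted p = 1.26e-06). TAGLN (transgelin, an actin-binding protein of smooth muscle) had 2.08 and 4.02 CPM in InsE, 22.2 and 24.6 in InsF, 12.5 and 11 in InsG, 14.5 and 16.6 in InsH, against 4.96 and 4.52 CPM in control. InsE was the lowest group and InsF the highest, and InsE differed from the other lines by -2.60 ± 0.20 (adjusted p = 2.25e-05). Its lower level in InsE than in control (adjusted p = 0.0332) was not called without InsE replicate 1 (0.523), control replicate 1 (0.175) or control replicate 2 (0.0942), or in limma on log2(TPM + 1) (0.149). The smooth muscle markers MYH11 and DES, 1 of them at 0 throughout, summed to 0.08 to 0.35 TPM in the lines and 0.1 to 0.11 TPM in control. JUNB, an AP-1 subunit, changed the other way, at -0.96 ± 0.10 in the averaged lines (adjusted p = 0.00014), with 4.80 to 8.99 CPM in the lines and 11.3 to 11.9 CPM in control.

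**Figure D5:**
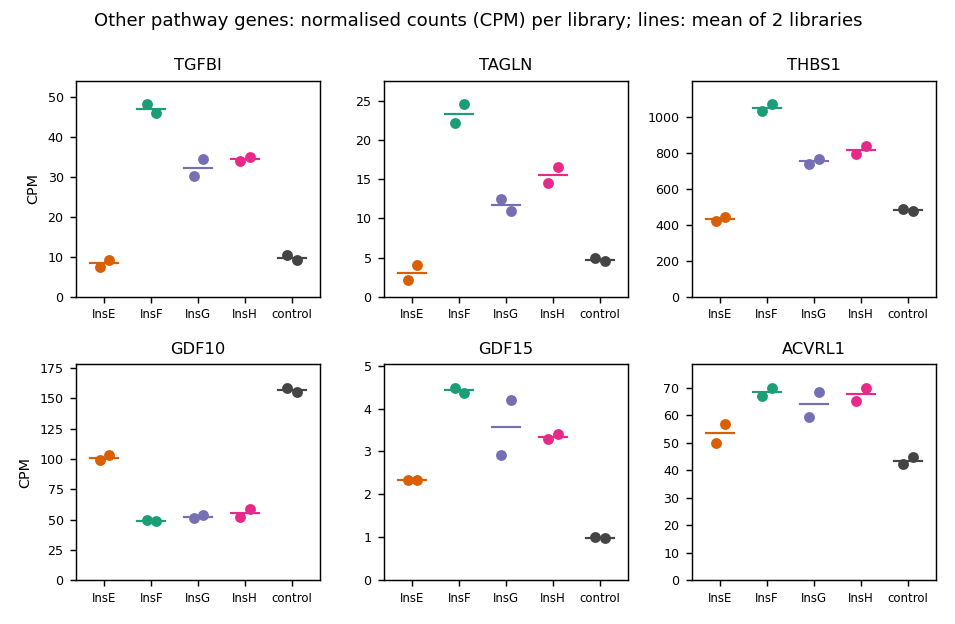
Normalised counts (CPM, vertical axes from 0) of 6 further pathway genes in the 2 libraries of each group, with a line at the group mean. TGFBI, TAGLN and THBS1 are high in InsF, InsG and InsH and near or below control in InsE, GDF10 is below control in all lines, and GDF15 and ACVRL1 are above it.

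Of 8 BMP target genes beyond the ID family, 7 were tested. In the averaged lines 3 were lower and none higher, against 14.5% and 13.1% of all tested genes. GATA2, a transcription factor, had 12.9 and 13.5 CPM in InsE, 9.36 and 11.4 in InsF, 9.91 and 10.0 in InsG, 11 and 12.3 in InsH, against 16.2 and 18.3 CPM in control (averaged log2 change -0.62 ± 0.09, adjusted p = 0.000731). All line libraries were below control. The homeobox genes MSX1 and DLX5 changed by -0.44 ± 0.11 (adjusted p = 0.0148) and -0.96 ± 0.24 (0.0162), and both calls were lost without control replicate 1 (0.204 and 0.104) or control replicate 2 (0.0608 and 0.151), and in limma on log2(TPM + 1) (0.0664 and 0.0899). DLX5 had 0.529 to 0.911 CPM in the lines and 1.31 to 1.49 CPM in control. With the replicate block, 6 of the 73 further genes differed among InsF, InsG and InsH, TGFBI (0.00165) and TAGLN (0.00707) among them. The share of all tested genes called with the block is not given here. Without the block 2 of the 73 differed, at a background of 0.09% in that same fit. These were THBS1 (adjusted p = 0.00845) and CCN2, which encodes a matrix-associated growth regulator (0.000703). CCN2 had 50.6 and 48.4 CPM in InsF, above 13.4 to 20.6 CPM in InsG and InsH. The THBS1 call was lost without InsF replicate 1 (0.0742), InsF replicate 2 (0.171), control replicate 1 (0.0583) or control replicate 2 (0.0546).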

How the data were processed

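Polyadenylated RNA from GIST-T1 cells was sequenced after library preparation with the NEBNext Ultra II RNA kit, per the labels' protocols. The deposited tables give, per library, expected counts (estimated fragments per gene, not normalised between libraries) and TPM. The submitters' processing notes name the tools RSEM 1.3.2, STAR 2.5.3 and DESeq2 1.38.3 and the build hg38, and the strand setting is not given in the sources used here. A series table with 10 value columns was left out, since its columns go by names found in no sample's labels.

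After rounding of the expected counts to integers, edgeR 4.0.16 was run (robust quasi-likelihood test, TMM, filterByExpr with a minimum count of 10) in R 4.3.3. All 10 libraries were fitted together with 5 residual degrees of freedom. The p-values are two-sided and were adjusted over 15554 genes by Benjamini-Hochberg, at a threshold of 0.05. The script was tested on counts simulated for InsE against control. It recovered 70.1% of the 1.5-fold changes, 91% of the 2-fold and 95.5% of the 4-fold changes, with 14 false calls. Floors use 3 counts and cover counting error only. Library totals of 9.4 to 42.5 M counts set the precision.

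The 49 genes and the list of 104 further genes were chosen with earlier results of these data known. Full values were given for members past the threshold with the 6 largest log2 changes in a comparison with control, those past it among the 4 lines, and the most abundant member of each role. Further genes were named for the 3 largest changes per sublist. Values of SMAD1, SMAD6, TGFBR3, ACVR1B, ACVR2B, TGIF1, LTBP2, CHRD and CCN2 were given outside this rule, after their values were seen. Positions came from GENCODE release 29. Of the 49 genes, 15 share exon sequence with a gene on the opposite strand, among them ENG, SMAD3, LTBP1, TGFB1, TGFB3, SMAD1 and SMAD5. So do genes of the wider list, among them TAGLN, GDF11, JUNB, THBS1, PMEPA1, ZFYVE9, CCN2 and FSTL1. Without a strand setting the reads of these genes cannot be told from the partner's.

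Same-numbered libraries deviated together among the lines but not between control and the lines, so comparisons among the lines are given with and without the replicate block.

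Alternatives were DESeq2 size factors, library size alone, DESeq2 1.42.0 as the test, other filters, limma 3.58.1 on log2(TPM + 1), a replicate block, each library left out and, chosen after seeing the data, both control libraries merged into 1.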

Additional observations from a re-analysis of the deposited data

Results flagged for a closer look

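The results below were set apart because the change against control differed between the lines, by edgeR's test of any difference among the 4 lines. BMPR1B had an adjusted p of 0.00019, at 0.928 to 0.952 CPM in InsE and 3.67 to 4.48 CPM in InsF, InsG and InsH. BMP4 had 0.000356, with InsE lowest of the lines, and TGFBR2 had 0.00165, with InsE lowest and InsF highest. BMP5 had 0.00173 and BMP2 had 0.00255, both with InsE above the other lines. LTBP1 had 0.00255 and ENG 0.0135, both with InsE below the other lines. The weakest were ID1 at 0.0443, with InsE highest, and FST at 0.049, with InsF highest.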

How the results depend on the processing

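Depth and the number of libraries limit these results: with 2 libraries a group, small shifts such as those of ID1 and TGFBR3 lost calls when 1 library was left out. So did some larger ones, such as FST in InsH (log2 change 0.9) and SMAD9 in InsE (-0.76). Without 1 library at a time, the counts of called genes ran from 7 to 12 for InsE, 10 to 16 for InsF, 8 to 13 for InsG, 9 to 12 for InsH and 9 to 18 for the averaged lines. They ran from 5 to 8 among the 4 lines, 8 to 14 for InsE against the other lines and 0 to 0 among InsF, InsG and InsH. DESeq2 size factors, library size alone and a stricter filter of 1 CPM kept every count within 1.5 times. Of edgeR's calls, DESeq2's test did not make those of ACVR1B, SMAD6 and FST in InsE or ACVR2B, SMAD9 and TGIF1 in InsF. Also lost there were ACVR2B and SMAD1 in InsG, ACVR2B in InsH, and TGFB3, LTBP1, SMAD1, TGIF1 and ID1 in the averaged lines. Between InsE and the other lines it lost LTBP2, SMAD1, SMAD2, SMAD6 and TGIF1, and among the 4 lines FST and ID1. In limma on log2(TPM + 1) 39 genes were tested, where the main fit tested 41. Of these 39, limma called 6 for InsE, 8 for InsF, 4 for InsG and 11 for the averaged lines. In this fit FSTL1 in InsE changed sign (-0.15), as did RNF111 in InsE (0.1), InsF (0.05) and the averaged lines (0.02). Merging the controls called 10 in InsF. Without a filter 14 of 47 tested genes were called among the 4 lines, where the main fit called 9 of 41. That fit called 1 among InsF, InsG and InsH, where DESeq2's test also called 1. The shares of all tested genes called in these alternative fits are not given here, so their counts have no background beside them. Over the named genes and these settings, 5866 results, called or not, stayed on their side of the threshold, 125 were newly called, 333 lost their call and 4 changed sign. The causes of these changes were not tested.

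Same-numbered libraries deviated together among the lines (correlations of 0.39 to 0.46) but not between control and the lines, so the numbers were not read as pairs in comparisons with control. With the replicate block, 19 genes were called for InsE, 21 for InsG, 19 for InsH, 20 among the 4 lines, 24 for InsE against the other lines and 3 among InsF, InsG and InsH. The shares of all tested genes in the fit with the block are not given here.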
